A study of Mus musculus with 8 samples.

Results

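The axon guidance ligands and receptors of the mouse medial prefrontal cortex were compared between mice that had been stressed and mice that had not. The members were chosen by gene symbol alone, as all semaphorin, plexin, EphA, EphB, ephrin-A, ephrin-B, Slit and Robo genes together with the neuropilins, netrins 1 and 4, Dcc and the Unc5 receptors. The platform annotation names 63 such genes, read by 165 of the 45281 probes of an Illumina bead array. Of these, 84 probes standing for 48 genes were detected on at least 4 of 8 arrays (a detection p under 0.05) and were tested, among 20531 probes tested in all. The remaining 15 genes (Efna2, Efna4, Epha1, Epha2, Epha10, Ephb3, Ntn4, Plxna1, Plxna3, Plxna4, Sema3d, Sema3g, Sema4c, Sema6c and Unc5d) were not tested; Ntn4 and Sema6c were detected on 2 arrays each, Sema4c on 1 and the others on 0.

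RNA came from bilateral 1 mm punches of this cortex, taken from males 10 weeks old. The stressed group (IMO in the labels, 4 arrays, replicates 1 to 4) was immobilized for 2 h and examined 6 days later under basal conditions, and the unstressed group (4 arrays, replicates 5 to 8) was not immobilized. Strain and genotype are not given in the sources used here, and no label states whether every array stands for its own animal; the p-values therefore speak of these samples' spread, which may be technical. In tissue of this kind fewer cells of a type and less RNA per cell cannot be told apart.

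Guidance cues are proteins that steer growing axons by attraction or repulsion, and in the adult cortex many of them remain in use at synapses, on glia and on blood vessels. Semaphorins signal through plexins, the secreted class 3 members mostly with a neuropilin as co-receptor. Ephrins are membrane-bound ligands of the Eph receptor tyrosine kinases and can signal back into the cell that carries them. Slits repel through Robo receptors, and netrins attract through Dcc and repel through Unc5 receptors.

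Before the values by family, one feature of the arrays has to be given, since it touches several members. Stressed replicate 1 and unstressed replicate 6 carried more transcript of the subcortical marker list (12 of its 15 genes tested), with summed log2 signals of 13.33 and 13.24 against 11.84 to 12.36 in the other 6 arrays. Their summed myelin markers (12 of 14 tested) were at 14.75 and 14.81 against 13.07 to 13.79. Gene by gene, 6 of the 12 subcortical and 11 of the 12 myelin markers were above the other 6 arrays on both. Interneuron sums were also above, at 14.54 and 14.48 against 14.06 to 14.21, with 3 of 7 genes above and 1 below on both. Oligodendrocyte precursor sums were at 12.74 and 12.56 against 12.19 to 12.42, with 1 of 5 genes above on both. The cortical layer lists did not follow that pattern as a whole. Of the upper-layer list (6 of 8 tested) 1 gene, Cux2, was below the other arrays on both, at 7.85 and 8.04 against 9.15 to 9.80; the list's sum was 10.96 in stressed replicate 1, inside the range of the other arrays, and 10.33 in unstressed replicate 6, below their lowest of 10.68. The deep-layer list (7 of 8 tested) had sums of 13.38 and 13.73, inside the 13.31 to 13.94 of the other arrays, with 1 gene above and 1 below on both. Such sums follow the brightest genes. With each gene centred on its mean, this list averaged -0.38 in stressed replicate 1 and 0.03 in unstressed replicate 6. The other 6 arrays were at -0.25 to 0.29. Fezf2 was at 9.70 and 11.51 on these arrays, against 11.01 to 11.88, so they were not alike in this list. Cux2, Rorb, Fezf2, Tle4 and Tbr1 were detected on all 8 arrays. Each group holds 1 of these punches. Sorted signals were nearly equal between arrays, and the lowest log2 signal with a detection p under 0.05 was 6.05 to 6.13 depending on the array, so values near 6 are background. A second deposited table holds other signals under the same sample names, and which table holds the labelled arrays is not settled; the values here come from the table whose signals match the detection p-values.

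Across the 84 member probes no difference between stressed and unstressed samples passed the limma test after Benjamini-Hochberg adjustment over all 20531 probes (0 of 84, smallest adjusted p 0.231; 0% over the whole array). At an unadjusted limma p under 0.05, 6 member probes had higher and 4 had lower signal in stressed samples, where 5.19% and 5.44% of all tested probes did, against 7.14% and 4.76% of the member probes. The groups did not overlap in 6 member probes (7.14%), against 6.92% of all tested probes. These shares lie near the background. Read at its brightest tested probe, the mean signal of a gene was above the unstressed mean in 22 of 48 genes and below it in 26. At that probe 3 genes were higher (6.25%, beside 4.74% of all tested genes) and 4 lower (8.33%, beside 5.86%) at an unadjusted p under 0.05, and 3 (6.25%, beside 7.17%) had groups without overlap. The median log2 difference was -0.04, beside -0.01 over all 11018 tested genes. For 38 of the 48 genes the whole 95% interval of the difference lay within a 1.5-fold change in either direction. Some of these were read near background, such as Epha4 (mean 6.17) and Slit1 (6.26). There a narrow interval bounds the difference in signal and not that in transcript. The count of 4 lower probes was 1 without stressed replicate 2, where the share over all probes was not computed. Without replicates 1 and 6, the punches described above, 6 member probes were higher and 6 lower (5.63% and 5.84% of all probes). By the second table's signals 1 was higher and 2 were lower (0.809% and 1.95% of all probes).

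**Figure D1:**
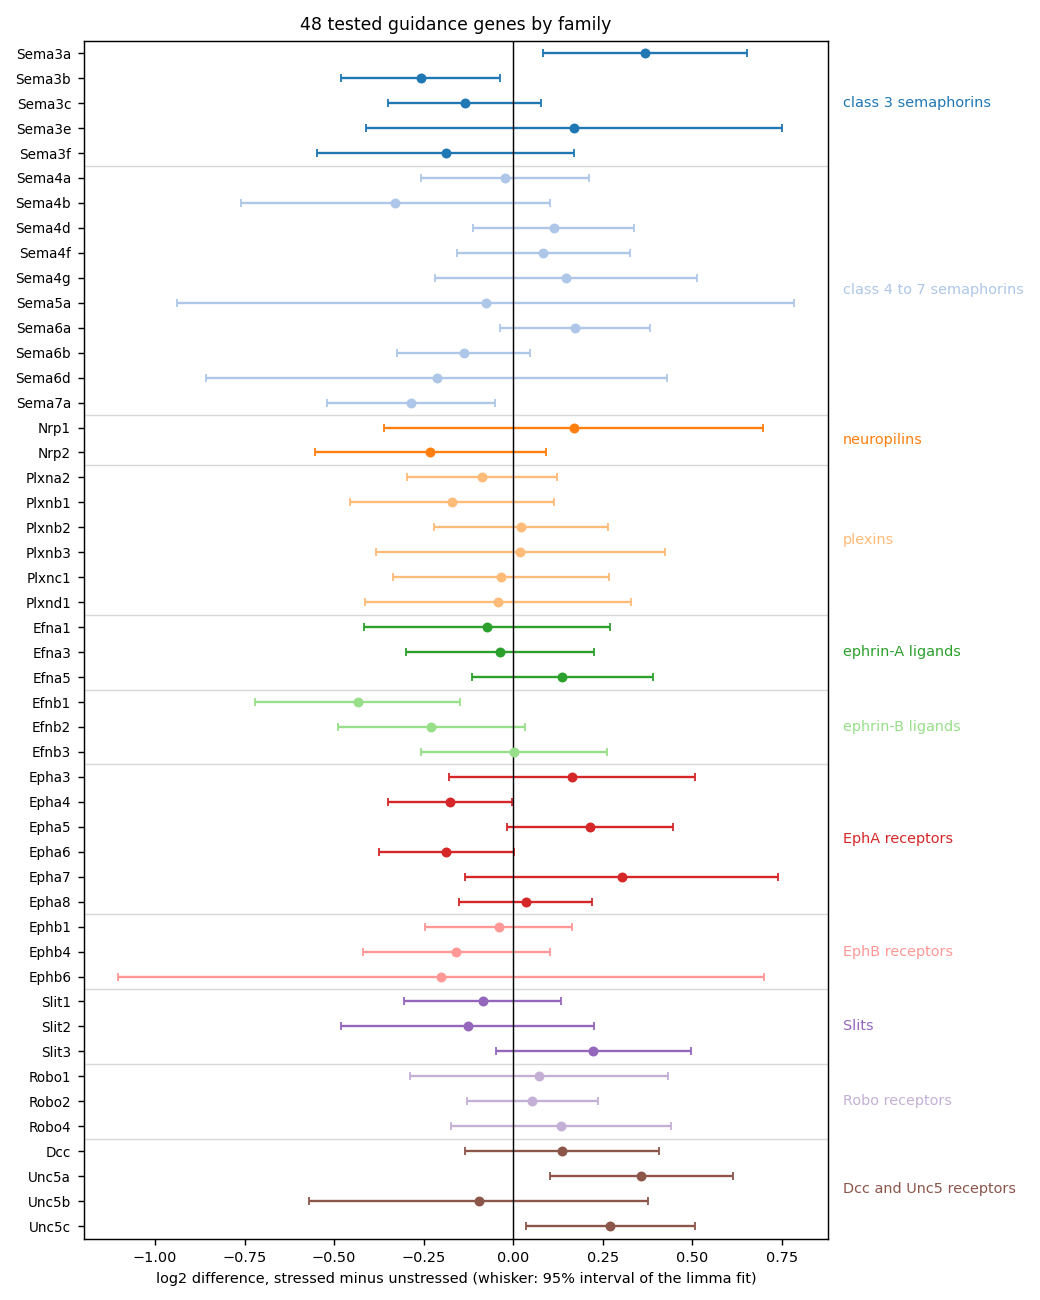
Log2 difference in signal between stressed and unstressed samples (horizontal axis) for the 48 tested guidance genes at their brightest probe, by family, with the 95% interval of the limma fit. In 7 genes (Sema3a, Sema3b, Sema7a, Epha4, Efnb1, Unc5a and Unc5c) the interval excludes 0 before adjustment, and the widest intervals are those of Ephb6, Sema5a and Sema6d.

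Both netrin receptors described first had higher mean signal in stressed samples, without passing the adjusted p. Unc5a and Unc5c are single-pass receptors that turn the response to netrin into repulsion and also bind FLRT proteins on neighbouring cells. Unc5a had log2 signals of 8.40, 8.29, 8.21 and 8.34 in stressed samples and 8.27, 7.95, 7.81 and 7.78 in unstressed samples. All stressed values but 1 lay above the highest unstressed value, that of replicate 5. Its mean was 8.31 ± 0.08 against 7.95 ± 0.23 (SD, n = 4 each), a 1.28-fold higher signal with a log2 difference of 0.36 (standard error 0.116). The unadjusted limma p was 0.0106, the adjusted p 0.351 and the two-sided exact permutation p 0.0571.

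Unc5c was read by a pair of probes. At probe ILMN_2461665 the stressed samples were at 8.66, 9.00, 9.13 and 8.96 and the unstressed samples at 8.64, 8.35, 8.40 and 8.62. The groups did not overlap, although stressed replicate 1 was only just above unstressed replicate 5. Stressed samples were 0.44 higher on the log2 scale (standard error 0.118, 1.35-fold, unadjusted limma p 0.00374, adjusted p 0.333). The two-sided exact permutation p reached its floor for 4 against 4 arrays, 0.0286. At the brighter probe ILMN_2461668 the values were 8.74, 9.04, 9.09 and 8.95 against 8.84, 8.61, 8.52 and 8.77, and the groups overlapped through stressed replicate 1. The difference there was 0.27 with a standard error of 0.107 and an adjusted limma p of 0.421. Without replicates 1 and 6 the differences at these probes were 0.48 and 0.32 and neither probe's groups overlapped, beside 18.3% of all probes without overlap in that smaller comparison. In the second deposited table the signs were opposite, at -0.25 for Unc5a and -0.11 and -0.16 for Unc5c, with unadjusted limma p of 0.183, 0.477 and 0.382.

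The promoters of Unc5a and Unc5c are shown because both genes had higher mean signal in stressed samples at every tested probe, and that of Efnb1 because it had the widest difference on the lower side. Each is the 250 bases before the gene's start in RefSeq (build GRCm38.p6, plus strand), at chr13:54949161-54949410, chr3:141465314-141465563 and chrX:99135811-99136060. Capitals mark the GC box GGGCGG and the half-site of the cAMP response element TGACG, read on both strands.
Unc5a: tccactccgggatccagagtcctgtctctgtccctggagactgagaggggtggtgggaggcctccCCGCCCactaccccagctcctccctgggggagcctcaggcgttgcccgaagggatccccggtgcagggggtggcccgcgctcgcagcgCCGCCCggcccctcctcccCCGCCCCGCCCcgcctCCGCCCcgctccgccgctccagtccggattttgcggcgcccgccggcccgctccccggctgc
Unc5c: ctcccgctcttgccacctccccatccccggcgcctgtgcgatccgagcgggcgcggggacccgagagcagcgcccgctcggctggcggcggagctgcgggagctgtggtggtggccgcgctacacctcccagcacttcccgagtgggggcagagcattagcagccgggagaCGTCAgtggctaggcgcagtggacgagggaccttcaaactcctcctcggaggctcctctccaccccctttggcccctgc
Efnb1: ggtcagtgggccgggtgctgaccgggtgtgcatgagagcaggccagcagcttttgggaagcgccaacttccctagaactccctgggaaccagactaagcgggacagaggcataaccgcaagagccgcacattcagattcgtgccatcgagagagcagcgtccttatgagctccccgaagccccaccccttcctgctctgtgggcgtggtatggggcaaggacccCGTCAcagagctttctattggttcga
The Unc5a window has 5 GC boxes, a pair of them overlapping, and no cAMP half-site, and a GC content of 76.8%. The Unc5c and Efnb1 windows have 1 cAMP half-site each and no GC box. Among all 32851 RefSeq promoter windows 32.7% hold a GC box, 17.8% the cAMP half-site and 16.1% the glucocorticoid receptor half-site TGTTCT on either strand. That last motif is in none of these 3 windows. Over the 42 tested members found in the promoter table, 32 have a GC box, 4 the cAMP half-site and 4 the glucocorticoid half-site in any of their windows. These counts are per gene and the shares above per window, so the units differ and no enrichment can be read from them. The motif matches describe the letters and were not tested against the signals.

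The other receptors of this family gave smaller values. Dcc, the receptor for attraction by netrin, had log2 signals of 7.11, 6.91, 6.59 and 6.77 in stressed and 6.74, 6.89, 6.67 and 6.55 in unstressed samples. The groups overlapped, and the difference was 0.14 (95% interval -0.13 to 0.41). Unc5b, which is also found on endothelial cells, followed the punches: stressed replicate 1 and unstressed replicate 6 were at 7.95 and 8.15, and the other 6 arrays at 7.16 to 7.55. Its difference between the groups was -0.10 with a 95% interval from -0.57 to 0.38.

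**Figure D2:**
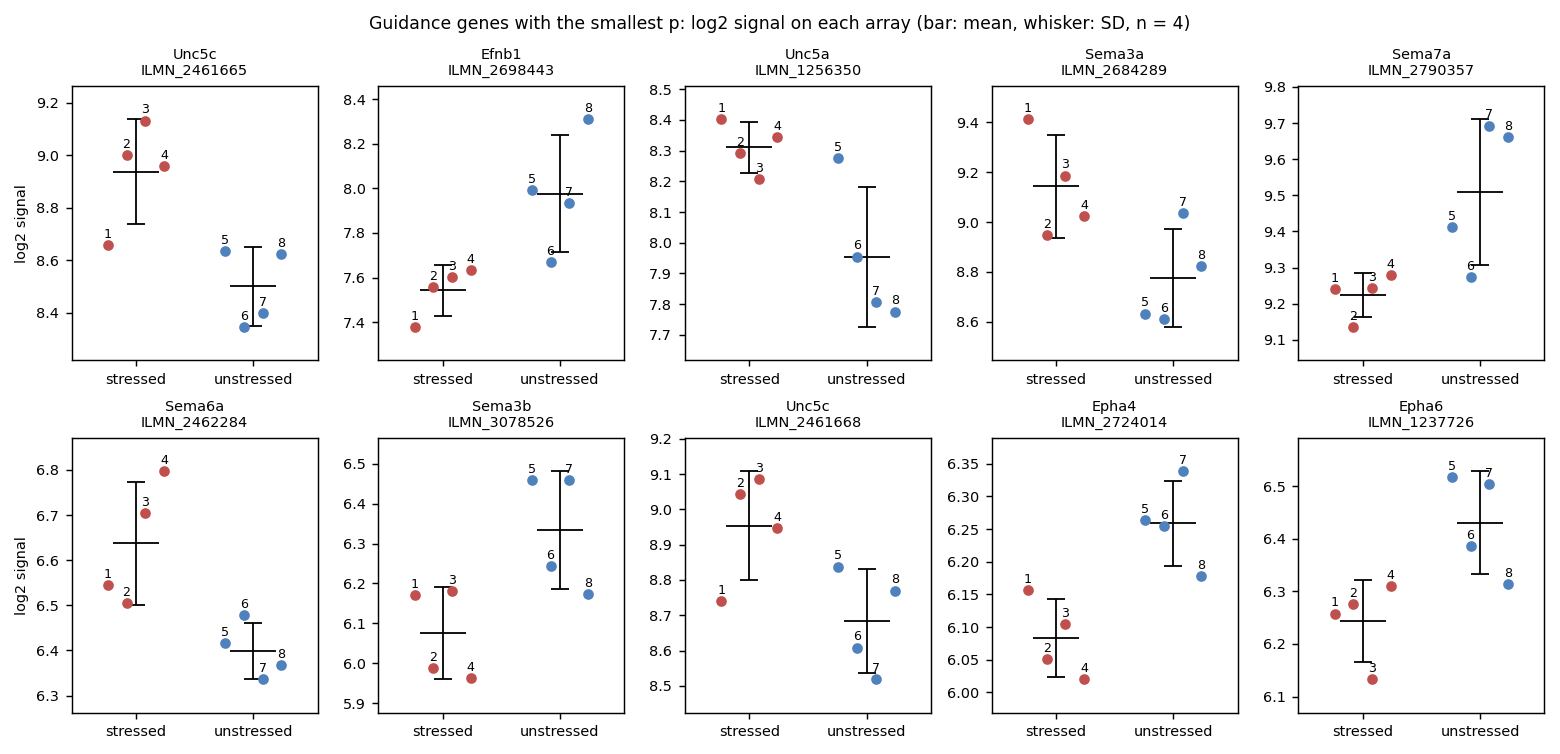
Log2 signal on each array (vertical axis) for the member probes with an unadjusted p under 0.05 or without overlap, other than those of Slit2; points are numbered by replicate, the bar is the mean and the whisker the SD (n = 4). Unc5c at ILMN_2461665 and Sema6a lie higher and Efnb1, Epha4 and Epha6 lower in all 4 stressed samples than in all 4 unstressed ones.

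Among the ephrin ligands, Efnb1 had lower signal in stressed samples. Ephrin-B1 is a transmembrane ligand of EphB receptors, made by neurons, glia and vessel-associated cells. Its log2 signals were 7.38, 7.56, 7.60 and 7.63 in stressed and 7.99, 7.67, 7.93 and 8.31 in unstressed samples. The groups did not overlap, the stressed samples being lower, and unstressed replicate 8 was the highest. The means were 7.54 ± 0.11 and 7.98 ± 0.26 (SD, n = 4 each), which is 1.35-fold lower in stressed samples, with a log2 difference of -0.43 (standard error 0.129). The unadjusted limma p was 0.00674, the adjusted p 0.334 and the two-sided exact permutation p 0.0286. With single arrays left out the difference ran from -0.54 to -0.32. In the second table Efnb1 had the other sign (0.35, unadjusted limma p 0.0447, adjusted p 0.981).

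Efnb2, a ligand that marks arterial endothelium among other cells, had values of 7.61, 7.98, 7.90 and 7.82 in stressed and 8.15, 7.76, 8.17 and 8.14 in unstressed samples. Of the unstressed values 3 lay above all stressed ones, and replicate 6 lay among the stressed values; the difference was -0.23 with an adjusted limma p of 0.533. Efnb3 had a mean of 7.01 in both groups and a difference of 0.00 (95% interval -0.26 to 0.26). Beside these, the endothelial marker list (9 of 10 tested) had 8 members with lower and 1 with higher mean signal in stressed samples, and its summed log2 signal ran from 11.72 to 12.18 in stressed and from 12.08 to 12.38 in unstressed samples. The mural and meningeal list (10 of 11 tested) had 8 lower and 2 higher members, with sums of 12.27 to 13.77 and 12.87 to 13.70. All 4 tested blood genes were lower in stressed samples, with sums of 14.30 to 15.36 against 15.05 to 15.86. Lower means were not confined to these lists. Of the tested myelin genes 11 were lower and 1 higher, of the subcortical ones 9 and 3, and of the choroid plexus ones 3 and 0. The oligodendrocyte precursor list had 1 lower and 4 higher. Of all 11018 tested genes 5773 were lower. The part of any of these cells in the ephrin-B values was not tested. The ephrin-A ligands Efna1, Efna3 and Efna5, which are anchored to the membrane by a lipid, had differences of -0.07, -0.04 and 0.14, with overlapping groups.

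The Eph receptors are the kinases that these ligands bind. Among EphA receptors the stressed mean was above the unstressed one in 4 of 6 tested genes, and all 3 tested EphB receptors had lower mean signal, none past the adjusted p. Over all tested genes the stressed mean was above in 47.6%. Ephb6 was at -0.20 (standard error 0.408). Without replicates 1 and 6, Ephb6, Ephb1 and Ephb4 were at -0.02, -0.0047 and -0.23 at their brightest probes. Epha5, a receptor abundant in forebrain neurons, was at 9.78, 9.81, 9.93 and 10.00 in stressed and 9.82, 9.81, 9.55 and 9.48 in unstressed samples. Its groups overlapped at the lower stressed values, and the difference was 0.21 (standard error 0.104, adjusted limma p 0.504). Its other tested probes were at 0.20 and 0.11. Without replicates 1 and 6 the difference was 0.30 with an unadjusted limma p of 0.0305.

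Epha4 and Epha6 had groups without overlap, with signals at background for Epha4 and close to it for Epha6. Epha4, a receptor that binds ephrins of both classes, was at 6.16, 6.05, 6.10 and 6.02 in stressed and 6.26, 6.25, 6.34 and 6.18 in unstressed samples. It was detected on 1 stressed and 4 unstressed arrays and so entered the test through the unstressed group, where it is higher. Its difference of -0.18 had an unadjusted limma p of 0.0478 and an adjusted p of 0.467. Epha6, detected on all 8 arrays, was at 6.26, 6.28, 6.13 and 6.31 against 6.52, 6.39, 6.50 and 6.31, with a difference of -0.19, an unadjusted limma p of 0.0516 and an adjusted p of 0.473. The lowest unstressed and the highest stressed value of Epha6 are equal to the second decimal.

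Epha7, a repulsive receptor of cortical and thalamic neurons, varied between arrays of each group. At its brightest probe the stressed values were 10.43, 9.71, 9.60 and 9.46 and the unstressed values 9.60, 9.60, 9.63 and 9.15. Stressed replicate 1 was the highest and unstressed replicate 8 the lowest. The difference of 0.30 (standard error 0.198) was 0.09 without stressed replicate 1. Its other tested probes had differences of 0.16, 0.07 and -0.0037, the last near background (mean 6.22). At ILMN_2554261 stressed replicate 1 and unstressed replicate 6 were at 9.20 and 8.68, above the 8.10 to 8.58 of the other arrays. The same arrays were at 8.60 and 8.64 at ILMN_1228560, against 7.48 to 8.34. Ephb1 was at 9.29 to 9.42 in stressed and 9.24 to 9.56 in unstressed samples, with a difference of -0.04 (95% interval -0.25 to 0.16). Ephb4, known as the venous endothelial receptor of ephrin-B2, gave -0.16 where its signal was brightest, and -0.21 and 0.17 at further probes. The probe at 0.17 was near background (mean 6.37). Epha3 (0.16) and Epha8 (0.04) had overlapping groups as well.

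Slit2, a secreted repellent for Robo-bearing axons, gave the smallest p of any member, but at 1 of its 4 tested probes. At ILMN_1232381 the log2 signals were 7.10, 7.06, 7.48 and 7.46 in stressed and 6.65, 6.19, 6.53 and 6.69 in unstressed samples. All stressed values lay well above all unstressed ones. The means were 7.27 ± 0.23 and 6.52 ± 0.23 (SD, n = 4 each), a 1.69-fold difference of 0.76 on the log2 scale (standard error 0.14). The unadjusted limma p of 0.000239 ranked 20 among 20531 probes, the adjusted p was 0.231 and the exact permutation p 0.0286. The second table gave 0.24 for this probe, in the same direction, with an unadjusted limma p of 0.157.

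The brightest Slit2 probe, ILMN_1253797, had a mean difference of the other sign. It is the 1 tested Slit2 probe that the annotation assigns to the curated RefSeq transcript, while the other 3 are assigned to separate cDNA records. Its values were 8.84, 8.78, 8.90 and 8.83 in stressed and 9.08, 8.41, 9.11 and 9.25 in unstressed samples. The stressed values were tightly grouped, and unstressed replicate 6 was the lowest of all. The difference was -0.13 (95% interval -0.48 to 0.23, adjusted limma p 0.83). Without replicates 1 and 6 it was -0.31 with no overlap and an unadjusted limma p of 0.00935, while ILMN_1232381 was at 0.71 in that comparison, so these probes differed in sign. The other Slit2 probes had differences of 0.24 and -0.14, both with overlapping groups. The probe at -0.14 was near background (mean 6.18). Which transcripts the 4 probes read was not analysed here.

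**Figure D3:**
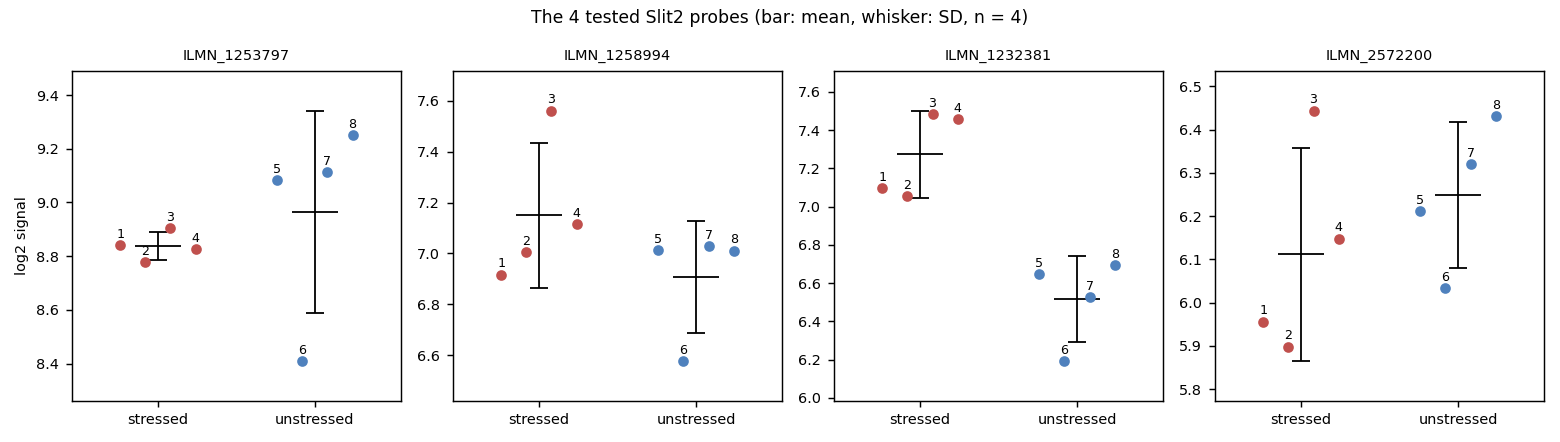
Log2 signal on each array (vertical axis, its range differs by panel) at the 4 tested Slit2 probes, numbered by replicate, with mean and SD (n = 4). Only ILMN_1232381, the third panel, has all stressed values (7.06 to 7.48) above all unstressed values (6.19 to 6.69).

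Slit1 was near background with a difference of -0.08. Slit3 was at 9.73, 9.86, 9.73 and 9.81 in stressed and 9.86, 9.23, 9.60 and 9.53 in unstressed samples; the groups overlapped through unstressed replicate 5, and the difference was 0.22 (adjusted limma p 0.559). Of the Slit receptors, Robo1 was at 9.65, 10.06, 10.09 and 10.16 against 10.38, 9.80, 9.82 and 9.67, with a difference of 0.07 (95% interval -0.29 to 0.43). Robo2, a neuronal receptor, was among the most even members at its brightest probe, at 8.59 to 8.70 against 8.47 to 8.72. The difference there was 0.05 (-0.13 to 0.24). Its other tested probes had the opposite sign, at -0.14 for ILMN_2567532 and at -0.01, -0.05 and -0.08 for probes within 0.5 of background. Without replicates 1 and 6 ILMN_2567532 was at -0.21 (unadjusted limma p 0.0507). Robo4, an endothelial receptor, had a difference of 0.13 (-0.17 to 0.44) with overlapping groups. Its sign was not stable: the same probe was at -0.03 without replicates 1 and 6. A dimmer probe, at -0.05, was at background (mean 6.07) and detected on 2 stressed and 2 unstressed arrays.

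Among the secreted class 3 semaphorins, Sema3a was the member with the higher and Sema3b that with the lower stressed mean at an unadjusted p under 0.05. Sema3a, the repellent that collapses growth cones and, in the adult, is held in perineuronal nets around inhibitory neurons, was at 9.41, 8.95, 9.19 and 9.02 in stressed and 8.63, 8.61, 9.04 and 8.82 in unstressed samples. Unstressed replicate 7 lay among the stressed values. The means were 9.14 ± 0.21 and 8.78 ± 0.20 (SD, n = 4 each), a 1.29-fold higher signal with a log2 difference of 0.37 (standard error 0.129, unadjusted limma p 0.0162, adjusted p 0.377). Its exact permutation p was 0.0857. Without replicates 1 and 6 the difference was 0.22, and the second table gave 0.06. Sema3b was at background, detected on 2 stressed and 4 unstressed arrays, with a difference of -0.26 (adjusted limma p 0.417).

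The partners of these ligands are neuropilins and plexins, and none had an unadjusted p under 0.05 at its brightest probe. Nrp1, the co-receptor that binds class 3 semaphorins and vascular growth factor, was at 10.29, 9.36, 9.32 and 9.45 in stressed and 9.74, 9.81, 9.16 and 9.02 in unstressed samples. Stressed replicate 1 was far above the rest of its group, and the difference was 0.17 (95% interval -0.36 to 0.70); its other probes were at 0.31 and 0.24. Nrp2, the preferred co-receptor of Sema3f, was at 6.16 to 6.69 against 6.23 to 6.75, with a difference of -0.23. All 6 tested plexins had overlapping groups and differences from -0.17 (Plxnb1) to 0.02 (Plxnb2). Plxna2, a signalling partner of neuropilins, was at 10.14, 10.09, 10.04 and 9.96 against 10.23, 10.21, 9.92 and 10.21, with a difference of -0.09 (-0.30 to 0.12).

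Of the 10 tested membrane-bound semaphorins, Sema7a was the 1 with an unadjusted p under 0.05 at its brightest probe. Sema7a, a lipid-anchored ligand of integrins and plexin-C1, was at 9.24, 9.13, 9.24 and 9.28 in stressed and 9.41, 9.27, 9.69 and 9.66 in unstressed samples. The stressed values were tightly grouped, and unstressed replicate 6 lay just below the highest of them. The means were 9.22 ± 0.06 and 9.51 ± 0.20 (SD, n = 4 each), with a log2 difference of -0.29 (standard error 0.106, 1.22-fold lower, unadjusted limma p 0.0219, adjusted p 0.408). Without replicates 1 and 6 the groups did not overlap and the difference was -0.37. The second table gave 0.16, the opposite sign. Its receptor Plxnc1 had a difference of -0.03 (95% interval -0.33 to 0.27).

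Sema6a, a transmembrane ligand of A-type plexins, was at 6.54, 6.50, 6.70 and 6.80 in stressed and 6.42, 6.48, 6.34 and 6.37 in unstressed samples at its dimmer probe. The mean over all arrays there, 6.52, was within 0.5 of background. The groups did not overlap, by a narrow margin, and the difference was 0.24 (adjusted limma p 0.417). Its brighter probe was at 0.17, with overlap. Sema4b ran from 8.68 to 9.35 in stressed and from 8.84 to 9.62 in unstressed samples at its brightest probe. The difference was -0.33 there and -0.01 at a dimmer probe at background (mean 6.12). Sema4a, also known as a regulator of immune cells, had a difference of -0.02 (-0.26 to 0.21). The remaining members, Sema4d, Sema4f, Sema4g and Sema6b, had differences of 0.11, 0.08, 0.15 and -0.14 at their brightest probes. A dimmer Sema6b probe had the opposite sign (0.10), and dimmer Sema4f probes were at 0.12 and -0.01, the last near background (mean 6.22).

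Some members, like other genes of the array, had stressed replicate 1 and unstressed replicate 6 apart from the other arrays. In 6 of the 48 genes stressed replicate 1 and unstressed replicate 6 were both above all other 6 arrays, and in 5 both were below them. Over all tested genes 7.79% were above and 10.6% below in this way, against 12.5% and 10.4% of the members. These shares are not read as a result about the members. Sema5a, a semaphorin with thrombospondin repeats that has been described on oligodendrocyte-lineage cells, was at 10.28 and 10.63 on those arrays and at 8.85 to 9.49 on the others. A further Sema5a probe gave 9.80 and 10.24 against 8.44 to 9.03. Sema6d, a ligand of A-type plexins, gave 8.88 and 8.96 against 7.73 to 8.30. Plxnb3, a plexin found on oligodendrocytes, was at 7.08 and 7.21 against 6.31 to 6.67.

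The others on the higher side were Unc5b, Nrp1 and Sema3f, the last at 7.92 and 8.28 against 7.43 to 7.82. On the lower side Ephb6, an Eph receptor without kinase activity, was at 7.03 in stressed replicate 1 and 7.78 in unstressed replicate 6, against 8.56 to 9.00 in the other 6 arrays. Sema3e, a ligand that binds plexin-D1 directly and is made by deep cortical neurons, was at 6.78 and 6.77 against 7.17 to 7.94. Plxnc1, the plexin that binds Sema7a, was at 8.49 and 8.60 against 8.76 to 9.05, and Efnb2 and Sema4a were lower by a smaller margin. The standard errors of the group differences of these 11 genes ran from 0.106 for Sema4a to 0.408 for Ephb6, with 0.39 for Sema5a and 0.291 for Sema6d, beside a median of 0.12 over the 48 genes. Each group holds 1 of these arrays, so wide errors follow in part from how the genes were picked. The subcortical, myelin, interneuron and oligodendrocyte precursor sums given above were high on the same pair of arrays, and their part in these values was not tested.

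**Figure D4:**
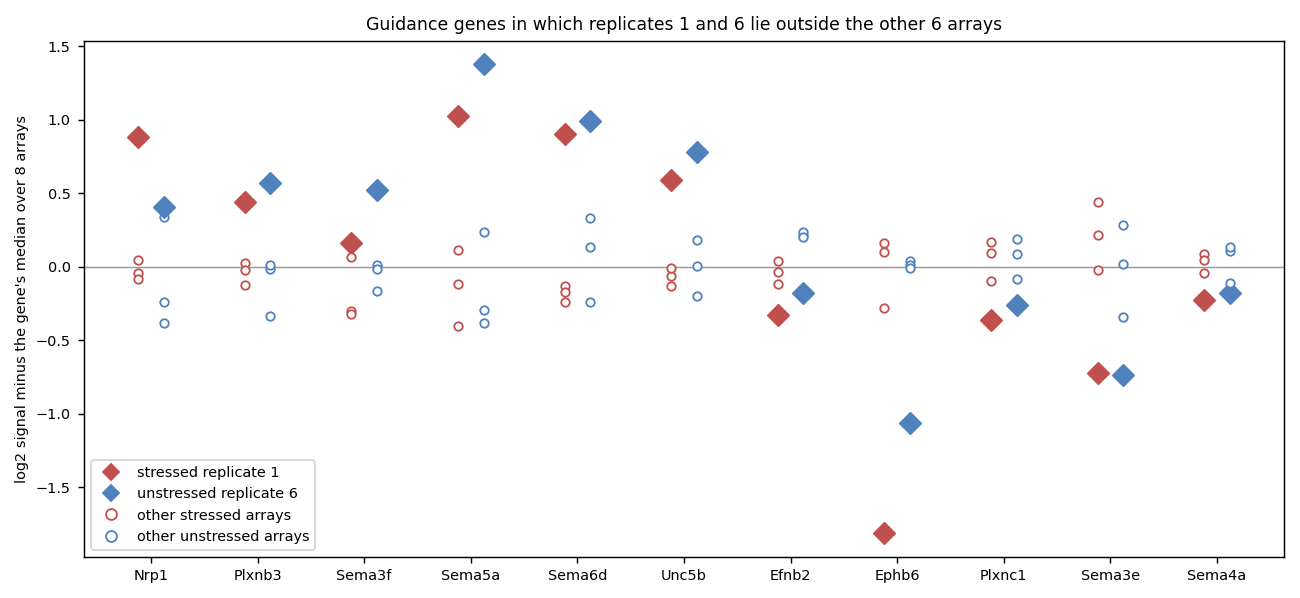
Log2 signal minus the gene's median over the 8 arrays (vertical axis) for the 11 member genes in which stressed replicate 1 and unstressed replicate 6 (filled diamonds) lie both above or both below the other 6 arrays (open circles). Sema5a and Sema6d lie highest and Ephb6 and Sema3e lowest on these arrays.

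Probes of one gene did not always have differences of the same sign. Of 22 member genes with several tested probes, 12 had both signs. Of the 84 member probes 27 had a mean log2 signal within 0.5 of background or below it, such as dimmer probes of Robo2, Epha3 and Ephb1. In Sema3c, Sema4f, Sema5a, Epha3, Epha7, Ephb4, Robo1 and Robo4 the signs differed only through such dim probes. Sema6b, Plxnd1, Robo2 and Slit2 had both signs among probes above that level.

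Other genes of the same pathways were read from a list of 91 cues, co-receptors and effectors outside the member families, with 86 in the platform annotation and 74 among the tested genes. Of these, 6 had higher and 4 lower signal in stressed samples at an unadjusted limma p under 0.05 (13.5% in all, beside 10.6% of all tested genes), and 0 passed the adjusted p. Flrt3, an adhesion protein that binds Unc5 receptors, was at 10.27, 10.20, 10.56 and 10.48 in stressed and 9.84, 9.48, 10.24 and 10.13 in unstressed samples. Its groups overlapped through unstressed replicate 7, and the difference was 0.45 (standard error 0.159, adjusted limma p 0.377). Rtn4r, the receptor for the myelin inhibitor Nogo, had a difference of -0.42, with means of 6.45 and 6.88, not far above background. The chemokine Cxcl12 had one of -0.40 and groups without overlap (unadjusted limma p 0.00419, adjusted p 0.333). Groups did not overlap in 5 of the 74 genes, beside 7.17% of all tested genes.

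Among effectors, Farp2, an exchange factor below plexin-A receptors, had a difference of 0.29 and groups without overlap. Mical2, an oxidoreductase that acts on actin, had one of -0.30, with means of 6.46 and 6.76, not far above background. Nfasc, an adhesion molecule of the axon initial segment, was at 0.29, also without overlap. Kalrn, which acts with EphB receptors at dendritic spines, was at 0.22 with other probes of opposite sign, as were Enah at 0.19 and Dock1 at -0.26, which act in actin assembly and Rac activation. The kinase Abl1 was at 0.28 around background (6.19 and 5.91), with groups that did not overlap, which also held for Enah. All of these had adjusted limma p of 0.333 or more.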

How the data were processed

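Total RNA was amplified into biotinylated cRNA for Illumina arrays, per the labels' protocols. Probe intensities (linear, 2 tables) were deposited by the authors, the second with detection p-values; their normalization and scanner software are not given in the sources used here. For the value table used here detection p never rises with signal (0% of steps), while in the second table it does at 33.4% to 36.8% of steps. Every column was mapped to a sample (0 unused).

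After log2 transformation without pseudocount, the fit took in probes detected (p under 0.05) on 4 or more of 8 arrays and used limma 3.58.1 in R 4.3.3 (lmFit and eBayes), adjusted by Benjamini-Hochberg over 20531 probes. Tested on simulated data of 20531 probes with 200 changed by 1 on the log2 scale, it recovered 171 with 8 false calls, and 63 with 0 at a change of 0.5. The number of arrays limits the precision.

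A gene is read at its brightest tested probe. Genes named with values are those with an unadjusted p under 0.05 or no overlap, the brightest of each family and the 8 of widest range. The members and lists were chosen with earlier results of these data known. Planned correlations with marker lists are not given, since the arrays fall into unequal sets. Symbols come from the platform annotation, updated by Entrez ID (0 changed).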

Additional observations from a re-analysis of the deposited data

Results flagged for a closer look

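A value far from the other 3 of its group was found in 7 of the 96 groups of 4 examined at the members' brightest probes, where chance gives about 1 in 20. Sema6d was at 8.88 in stressed replicate 1 against 7.73 to 7.84 in the rest of its group, and Nrp1 at 10.29 on that array against 9.32 to 9.45. In unstressed replicate 6 Ephb6 was at 7.78 against 8.83 to 8.88 and Efnb2 at 7.76 against 8.14 to 8.17. In unstressed replicate 7 Efna1 was at 6.37 against 6.73 to 6.78 and Plxna2 at 9.92 against 10.21 to 10.23. Epha7 was at 9.15 in unstressed replicate 8 against 9.60 to 9.63.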

How the results depend on the processing

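No paired analysis was possible because the replicate numbers 1 to 8 are not shared between the groups. No member probe passed the adjusted limma p in any of 18 settings; a further setting, the mean of a gene's probes, changed only the median, by less than its spread. Of 520 recomputed differences of 29 named probes, 486 kept their sign and 34 did not, 18 of these in the second deposited table, where the cause was not tested. There Sema3b was at 0.10, Sema6a at -0.10 and -0.0072, Sema7a at 0.16, Unc5a at -0.25, Unc5c at -0.16 and -0.11, Efnb1 at 0.35, Sema4a at 0.010, Sema4b at 0.25, Epha5 at -0.24, Epha7 at -0.12, Ephb6 at 0.37, Efna5 at -0.073, Nrp1 at -0.025, Plxna2 at 0.022, Slit2 (ILMN_1253797) at 0.14 and Slit3 at -0.16. That other source gave 1 member probe higher, 2 lower and 1 without overlap, and 1 pathway gene outside the members, by the unadjusted p. The count of lower member probes was 8 with no probe filter and 7 with array weights, and leaving out single arrays it ran from 1 to 6 (1 without stressed replicate 2, 2 without stressed replicate 4 or unstressed replicate 5). Member probes without overlap were 13 of 84 with replicates 1 and 6 left out together, beside 18.3% of all tested probes. In that setting 1 of all probes passed the adjusted p. With single arrays left out they were 6 to 10 (10 without unstressed replicate 6 or 7), as fewer samples make overlap rarer. Sema5a was at 0.015 with both arrays left out and at 0.14 with a myelin covariate, where Unc5b was at 0.028. With single arrays left out the range was -0.37 to 0.31 for Sema5a, -0.26 to 0.10 for Unc5b, -0.47 to 0.25 for Ephb6, -0.059 to 0.30 for Nrp1, -0.011 to 0.40 for Sema3e, -0.49 to 0.016 for Sema6d, -0.078 to 0.042 for Sema4a, -0.093 to 0.016 for Ephb1 and -0.0084 to 0.23 for Robo1. The higher count ran from 4 to 8 and the pathway count from 7 to 13. With no probe filter, array weights or single arrays left out, the share over all probes was not computed. Those counts are therefore not read as results about the members.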
